A study of Mus musculus with 7 samples.

Results

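Hyaluronan is a long, unbranched sugar polymer of the extracellular matrix, and its synthesis, binding and turnover genes were examined in cancer-associated fibroblasts (CAFs) sorted from mouse pancreatic tumors. The set was chosen by name as 10 genes: the synthases Has1, Has2 and Has3, the binding proteins Cd44, Vcan, Tnfaip6 and Hmmr, and the turnover genes Hyal1, Hyal2 and Cemip. 9 of the 10 genes were among the 12771 genes of the count table, and Has3 was not analysed here. RNA was measured in 7 bulk libraries of CAFs with a modified MARS-seq protocol, in which only the 3′ end of each transcript is sequenced. The tumors were orthotopic, grown in the pancreas of male C57BL/6 J mice injected at 8 weeks of age and taken 2 to 3 weeks later, from the mouse pancreatic cancer line KPC. The KPC cells of the shBrca2 group (4 libraries, replicates 1 to 4) carried a short hairpin RNA against Brca2, and those of the shControl group (3 libraries, replicates 1, 2 and 4) carried a non-targeting hairpin. Both hairpins were delivered by lentivirus in the pLKO.1 vector with puromycin selection, so infection and selection were shared by the groups. The hairpin acted in the cancer cells and not in the fibroblasts, which were of the host genotype. CAFs were collected as live cells without CD45, CD31 or EpCAM on their surface and with podoplanin. The study counts 3 shControl and 4 shBrca2 mice, as many as there are libraries.

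Hyaluronan is made at the plasma membrane by the Has enzymes, which join activated glucuronic acid and N-acetylglucosamine and push the growing chain out of the cell. Outside the cell the chain is organized by proteins such as versican and TSG-6, is sensed by receptors such as CD44 and RHAMM, and is cut by hyaluronidases before lysosomal breakdown. In pancreatic cancer the polymer is known as an abundant component of the stroma, with fibroblasts as a major source.

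Total counts per library ran from 1898679 (shBrca2 replicate 3) to 5990579 (shBrca2 replicate 2). All 8 fibroblast marker genes, Pdpn and Pdgfra among them, were counted in every library. Their summed normalized count (counts divided by the library's DESeq2 size factor) was 73844 to 79248 in shControl and 62309 to 67501 in shBrca2. The matrix genes Dcn and Lum were the 2 of the 8 that were called lower. Over all genes tested, 3.77% were called higher and 5.27% lower, to set beside the marker calls given here. Markers of cells that the gate should remove were also counted. The 7 epithelial genes in the table (of 9) summed to 413 to 1163 in shControl and 1471 to 2083 in shBrca2, without overlap. Of these, 5 were called higher and 0 lower, and the median log2 fold change was 1.18. The 6 immune genes in the table (of 9 listed) summed to 293 to 315 in shControl and 379 to 427 in shBrca2, with Csf1r and C1qa called higher and Jchain called lower. The 3 endothelial genes in the table (of 6) summed to 43.6 to 112 and 77.7 to 111. Of these, 0 were called by DESeq2 or edgeR and 1, Pecam1, had an unadjusted p under 0.05. Pecam1 was lower in shBrca2 without overlap (log2 fold change -3.60, DESeq2 adjusted p = 0.031). It was not called because its mean normalized count, 3.87, was under the count minimum, and it was at 0 in at least 1 library. The 8 pericyte genes summed to 750 to 1300 and 1273 to 1680, with Notch3 and Des called higher. Des made up most of that rise, with means of 526 in shControl and 950 in shBrca2. Of the 8 genes, 5 had a positive and 3 a negative log2 fold change. Brca2 itself, measured here in the sorted cells, had a normalized count of 12.9 ± 4.18 (SD, n = 3) in shControl and 12.2 ± 2.56 (SD, n = 4) in shBrca2. Whether KPC cells, which carried the hairpins, were among the sorted cells was not tested.

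Among the 9 measured genes, Cd44 was called higher in shBrca2 CAFs and Has1 was called lower, and the other 7 did not pass the test. To be called, a gene needed an adjusted p (Benjamini-Hochberg, over all genes) under 0.1 in the likelihood ratio test of DESeq2, a log2 fold change beyond 0.5 in either direction and more than 5 normalized counts on average, which are the thresholds of the study's methods. Across the 12768 genes with a p, 9.04% were called in either direction, 3.77% higher and 5.27% lower. The median log2 fold change of the 9 genes was -0.26, beside 0.01 over all genes tested. The median absolute log2 fold change was 0.57, beside 0.28. The set was chosen with earlier results of these data known, so these medians and calls do not test it as a group. In bulk libraries, fewer cells that express a gene and less RNA per cell cannot be told apart, which holds for every difference given here.

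**Figure D1:**
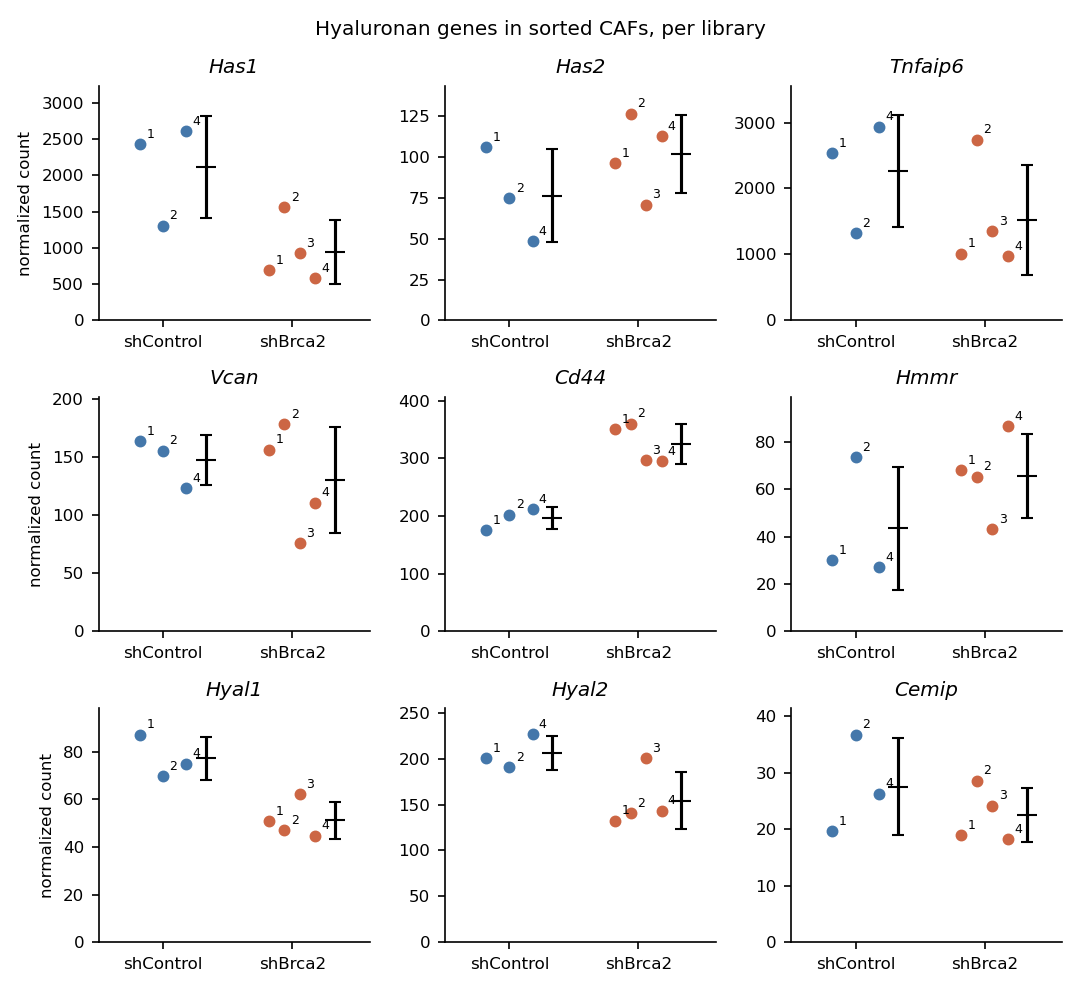
Normalized counts (vertical axes, starting at 0) of the 9 measured genes in each library, with the replicate number beside each point and the mean ± SD of the 3 shControl and 4 shBrca2 libraries as bars. The groups are separate for Cd44 and Hyal1 and overlap for the other 7 genes.

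Has1, one of the enzymes that polymerize hyaluronan, fell in shBrca2 CAFs. Its normalized count was 2423, 1304 and 2611 in the shControl libraries (1, 2 and 4 in order) and 694, 1559, 929 and 584 in the shBrca2 libraries (1 to 4). The groups overlapped, because shBrca2 replicate 2 lay above shControl replicate 2. The mean was 2113 ± 706 (SD, n = 3) in shControl and 942 ± 436 (SD, n = 4) in shBrca2, a 2.24-fold lower level (log2 fold change -1.17, SE 0.33, DESeq2 adjusted p = 0.0107). The counts behind these values were 538 to 2837 per library, and the call held when any single library was left out, with log2 fold changes from -1.53 to -0.99. Mesothelial cells also express Has1. The sum of their 10 markers was 1146 to 3458 normalized counts in shControl and 3311 to 3660 in shBrca2, with overlap. The fibroblast marker sum was lower in every shBrca2 library than in any shControl library. Dcn made up most of that fall, with means of 20576 in shControl and 12091 in shBrca2, and 6 of the 8 fibroblast markers were not called. The part of mesothelial cells or of fibroblast content in the values of Has1 was not tested. Has1 lies on the minus strand at chr17:17833691-17855589 (GRCm38.p6, the build named mm10 in the submitters' processing notes), and its 3′ part overlaps the span of Spaca6 over 9320 bases. Spaca6, a gene needed for sperm-egg fusion, had 12.8 ± 3.67 (SD, n = 3) normalized counts in shControl and 16.7 ± 3.79 (SD, n = 4) in shBrca2. How the counting treated reads in the overlap is not given in the sources used here. Reads of Has1 could thus have been split between these genes or dropped.

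Has2, the synthase required for heart formation in the mouse embryo, was not called. Its libraries held normalized counts of 106, 74.6 and 48.6 in shControl and 96.4, 126, 70.8 and 113 in shBrca2. The libraries of the groups were interleaved. The mean was 76.4 ± 28.7 (SD, n = 3) against 102 ± 23.9 (SD, n = 4), and the log2 fold change of 0.42 had a 95% interval from -0.17 to 1.01 (DESeq2 adjusted p = 0.52). Has2 lies at chr15:56665627-56694546 and shares its span with the antisense gene Has2os. The strand setting of the counting is not given in the sources used here, so reads of Has2 and Has2os could have been mixed. Has2os had 9.70 ± 2.61 (SD, n = 3) normalized counts in shControl and 4.16 ± 2.55 (SD, n = 4) in shBrca2, and was not called (log2 fold change -1.17, adjusted p = 0.38 in DESeq2).

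The balance between the synthases was taken within each library, where no size factor enters. The ratio of Has1 to Has2 counts, with 1 added to each count, was 22.7, 17.2 and 52.6 in the shControl libraries (1, 2 and 4 in order) and 7.15, 12.3, 12.8 and 5.14 in the shBrca2 libraries (1 to 4). Every shBrca2 library had a lower ratio than every shControl library. On the log2 scale the ratio was 4.78 ± 0.84 (SD, n = 3) and 3.12 ± 0.64 (SD, n = 4), a difference of -1.65 with a two-sided exact permutation p = 0.057, the smallest p that the 35 divisions of 7 libraries allow. The summed normalized count of both synthases was 2529, 1379 and 2660 in shControl and 791, 1685, 1000.0 and 697 in shBrca2. These sums overlapped between the groups, and their log2 means differed by -1.10 (two-sided exact permutation p = 0.114). The enzymes that make the sugar precursors of hyaluronan showed no call: of 9 genes, 0 were called in either direction by DESeq2 or edgeR and 1 (Nagk) had an unadjusted p under 0.05, with a median log2 fold change of -0.10 and a range from -0.45 (Nagk, which returns N-acetylglucosamine to the precursor pool) to 0.86 (Pgm3, at a mean under the count minimum). Nagk had an adjusted p of 0.084 in DESeq2 and stayed under the fold threshold.

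Tnfaip6 encodes TSG-6, a secreted protein that moves heavy chains of inter-alpha-inhibitor onto hyaluronan and cross-links it. The gene lies on the plus strand at chr2:52038113-52056681. Normalized counts were 2539, 1319 and 2939 in the shControl libraries (1, 2 and 4 in order) and 1014, 2742, 1352 and 978 in the shBrca2 libraries (1 to 4). shBrca2 replicate 2 was the second highest of the 7 libraries and shControl replicate 2 was below shBrca2 replicate 3, so the groups overlapped. The mean was 2266 ± 844 (SD, n = 3) against 1522 ± 831 (SD, n = 4), and the log2 fold change was -0.57 (95% interval -1.28 to 0.14, DESeq2 adjusted p = 0.43). Without shBrca2 replicate 2, the log2 fold change was -1.03 with a DESeq2 adjusted p of 0.0039, and the gene was called lower. Leaving out any other library gave no call, with log2 fold changes from -0.85 to -0.34 (DESeq2 adjusted p from 0.102 to 0.93).

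Has1 and Tnfaip6 varied together across libraries. The Pearson r of their log2 normalized counts, which share each library's size factor, was 0.93 over the 7 libraries and 0.99 after each group's mean was taken off. Their ratio within a library was computed after the values had been seen, so it is given with no test. The number of Has1 counts per Tnfaip6 count was 0.954, 0.988 and 0.888 in shControl and 0.685, 0.568, 0.687 and 0.598 in shBrca2. The ratio was 0.944 ± 0.051 (SD, n = 3) in shControl and 0.635 ± 0.061 (SD, n = 4) in shBrca2, so the libraries that overlapped for each gene alone did not overlap for the ratio.

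**Figure D2:**
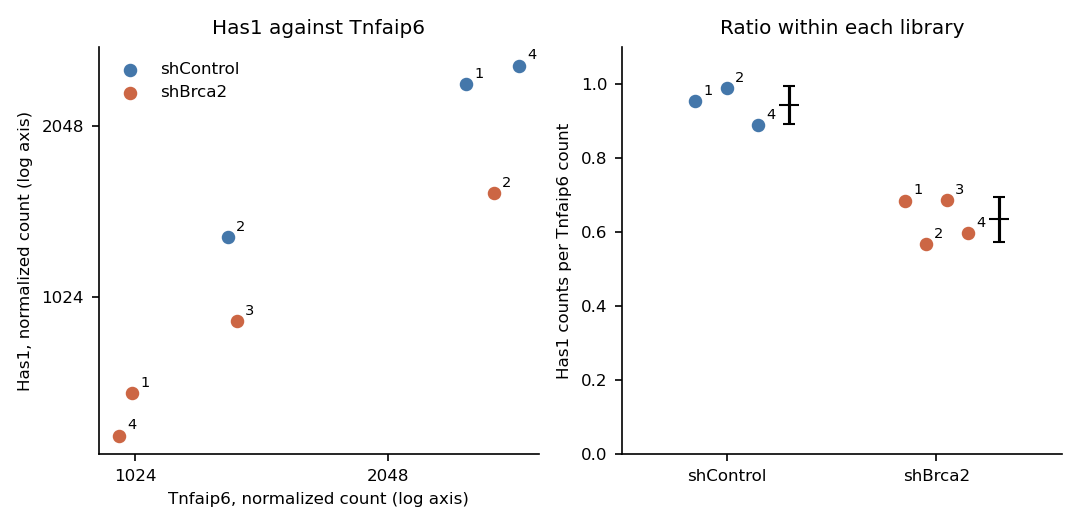
Left, normalized count of Has1 against that of Tnfaip6 in each library, both on log axes. Right, Has1 counts per Tnfaip6 count in each library (axis from 0) with mean ± SD bars for 3 shControl and 4 shBrca2 libraries. The shControl ratios lie between 0.888 and 0.988 and the shBrca2 ratios between 0.568 and 0.687.

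The genes whose profile over the 7 libraries was most like that of Has1, out of 6734 genes above a mean of 50 normalized counts, were Ifi205 (Pearson r 0.991), Gstt1 (0.991) and Tcf7l1 (0.987). Ifi205 belongs to an interferon-inducible family with near-identical copies, between which reads could have been split. Gstt1 is a glutathione transferase and Tcf7l1 a transcription factor of the Wnt pathway. These correlations are descriptions, and part of each comes from the difference between the groups.

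Cd44, the main cell surface receptor for hyaluronan, rose in shBrca2 CAFs. Its normalized count was 175, 202 and 212 in the shControl libraries (1, 2 and 4 in order) and 350, 360, 297 and 295 in the shBrca2 libraries (1 to 4). Every shBrca2 library was above every shControl library. The mean was 197 ± 19.2 (SD, n = 3) in shControl and 326 ± 34.5 (SD, n = 4) in shBrca2, a 1.67-fold higher level (log2 fold change 0.74, SE 0.17, DESeq2 adjusted p = 0.0012). Groups that did not overlap were seen for 17.1% of the genes tested and for 2 of the 9 hyaluronan genes, Cd44 and Hyal1. The raw counts of Cd44 were 160 to 618, and the gene was called under all 13 alternative fits, with log2 fold changes from 0.65 to 0.79. Cd44 lies on the minus strand at chr2:102811141-102901669 and is spliced into many isoforms, which reads at the 3′ end do not separate. Its closest profiles among the 6734 genes were those of Hilpda (Pearson r 0.983), Olr1 (0.975) and Xpr1 (0.971). Hilpda encodes a lipid droplet protein inducible by hypoxia, Olr1 the receptor for oxidized low-density lipoprotein and Xpr1 a phosphate exporter. As for Has1, these correlations are descriptions, and part of each comes from the difference between the groups.

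CD44 is tied to the actin cytoskeleton by a small group of linker proteins. Of the 6 linker genes 1, Ezr (ezrin), was called higher, beside 3.77% over all genes tested. The normalized count of Ezr was 209, 304 and 534 in shControl and 688, 625, 945 and 694 in shBrca2. Each shBrca2 value was above the highest shControl value (log2 fold change 1.08, SE 0.29, DESeq2 adjusted p = 0.0077). The median log2 fold change of the 6 linkers was 0.44, and Msn (moesin) and Rdx (radixin) had 0.58 and 0.31 without a call (DESeq2 adjusted p 0.22 and 0.64). Epithelial and mesothelial cells also express Ezr. The epithelial list had 7 of 9 genes in the table. These summed to normalized counts of 413, 802 and 1163 in shControl and 1920, 1471, 1639 and 2083 in shBrca2. Of the 7, 5 were called higher (Krt7, Krt8, Krt18, Krt19 and Elf3), beside 3.77% over all genes tested. Epcam was not analysed here, and Elf3 was at 0 in at least 1 library. The 10 mesothelial genes summed to 1146, 1901 and 3458 in shControl and 3520, 3311, 3660 and 3600 in shBrca2, so the groups overlapped. Their only calls, all higher and beside 3.77% over all genes tested, were the 3 keratins Krt8, Krt18 and Krt19, which the epithelial list also holds. Of the 10, 2 had a negative log2 fold change (Upk3b -0.40 and Lrrn4 -0.09). Immune cells also carry CD44, and the immune marker sum was higher in every shBrca2 library (379 to 427) than in any shControl library (293 to 315), Ptprc not being analysed here. Of the 6 immune genes 3 had a positive and 3 a negative log2 fold change. Csf1r, the receptor of a macrophage growth factor, rose from 113 ± 32.7 (SD, n = 3) to 248 ± 21.1 (SD, n = 4) normalized counts. The rise of Csf1r alone was larger than that of the immune marker sum. Cd68 and Lyz2, also markers of macrophages, had log2 fold changes of -0.32 and -0.26 without a call. The epithelial marker sum, like Cd44 and Ezr, was higher in every shBrca2 library than in any shControl library. The part of epithelial, mesothelial and immune cells in the values of Cd44 and Ezr was not tested.

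The promoters of Has1, Tnfaip6 and Cd44 are shown because they belong to the called genes and to the pair that varied together. RefSeq promoter windows on GRCm38.p6 (250 bases before the start and 50 from it) were found for 8 of the 10 genes, and the 250 bases before the start are printed 5′ to 3′ on the gene's strand, with the only motif match of each window in capitals. The windows are chr17:17855189-17855438 on the minus strand for Has1, chr2:52037863-52038112 on the plus strand for Tnfaip6 and chr2:102901666-102901915 on the minus strand for Cd44. The Has1 window starts from an internal start site, so all 250 bases lie within the annotated span of the gene.
Has1: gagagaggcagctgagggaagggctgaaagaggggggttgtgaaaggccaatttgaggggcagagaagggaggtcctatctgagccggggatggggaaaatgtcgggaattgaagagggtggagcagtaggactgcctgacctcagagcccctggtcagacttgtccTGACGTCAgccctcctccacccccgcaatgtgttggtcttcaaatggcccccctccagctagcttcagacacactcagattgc
Tnfaip6: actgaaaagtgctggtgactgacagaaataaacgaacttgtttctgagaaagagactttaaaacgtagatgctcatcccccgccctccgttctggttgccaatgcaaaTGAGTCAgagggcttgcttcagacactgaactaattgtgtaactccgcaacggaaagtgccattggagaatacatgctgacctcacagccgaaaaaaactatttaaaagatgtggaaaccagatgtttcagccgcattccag
Cd44: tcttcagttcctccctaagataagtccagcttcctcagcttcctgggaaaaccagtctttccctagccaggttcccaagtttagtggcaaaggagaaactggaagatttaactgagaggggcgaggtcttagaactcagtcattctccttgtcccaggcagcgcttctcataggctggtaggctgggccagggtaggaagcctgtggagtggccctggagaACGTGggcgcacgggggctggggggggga

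5 motifs, picked after the values had been seen, were searched on both strands of the 300-base windows. Has1 held a CRE (TGACGTCA) starting at -83 from the start, a motif found in 1.79% of the 32851 RefSeq windows. Tnfaip6 held an AP-1 motif (TGANTCA) at -142, which 7.81% of windows hold. Cd44 held the HIF core ACGTG at -29, which 19.6% hold. Has1 and Tnfaip6 shared no match of the searched motifs, and no matches overlapped each other. Of the remaining windows, Cemip held a TATA box (TATAAA) at -29, found in 13.6% of windows, and the NF-kB motif, found in 1.2%, was in none of the 8. These matches are letters in a window and do not show binding.

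Vcan encodes versican, a large proteoglycan whose head domain binds hyaluronan, and it was not called. The gene lies on the minus strand at chr13:89655309-89743027. Its normalized count was 164, 156 and 124 in the shControl libraries (1, 2 and 4 in order) and 157, 178, 76.0 and 111 in the shBrca2 libraries (1 to 4). The highest and the lowest of the 7 values were both in shBrca2. The mean was 148 ± 21.4 (SD, n = 3) against 130 ± 45.9 (SD, n = 4), and the log2 fold change was -0.16 (95% interval -0.71 to 0.39, DESeq2 adjusted p = 0.86). The proteases of the ADAMTS family that cleave versican did not share that pattern. Of 6 genes, 1 was called higher and 4 lower, beside 3.77% and 5.27% over all genes tested. Adamts9 rose from 48.8 ± 5.90 (SD, n = 3) to 120 ± 33.9 (SD, n = 4) normalized counts (log2 fold change 1.28, DESeq2 adjusted p = 0.00019). Adamts15 fell from 890 ± 175 to 470 ± 243 (adjusted p = 0.047 in DESeq2) and Adamts4 from 864 ± 58.4 to 600 ± 58.6 (0.0070), the latter with a log2 fold change of -0.53, close to the threshold. Adamts1 fell from 1316 ± 265 to 883 ± 186 (adjusted p = 0.078 in DESeq2) and Adamts5 from 27.2 ± 15.9 to 9.69 ± 5.74 (0.072). The call of Adamts9 held when any library was left out, while each of the calls that were lower was lost without at least 1 library. Adamts1, Adamts4 and Adamts5 lost theirs without shControl replicate 4, shBrca2 replicate 1 or shBrca2 replicate 4 (DESeq2 adjusted p from 0.13 to 0.34), as did Adamts15 (0.15 to 0.21). Adamts1 and Adamts5 also lost theirs without shControl replicate 1 (adjusted p in DESeq2 0.43 and 0.38), and Adamts5 without shBrca2 replicate 2 (0.14).

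Among other proteins that assemble with hyaluronan, 8 of 15 genes were in the table. Of these 8, 1 was called higher and 3 lower, beside 3.77% and 5.27% over all genes tested. Ptx3 encodes the pentraxin that cooperates with TSG-6 and the inter-alpha-inhibitor heavy chains in a hyaluronan matrix. Its normalized count was 1981, 1461 and 2167 in shControl and 309, 1140, 351 and 318 in shBrca2, without overlap (log2 fold change -1.82, SE 0.58, DESeq2 adjusted p = 0.030). Itih5 and Itih3 encode members of the inter-alpha-inhibitor heavy chain family. Itih5 fell from 400 ± 150 (SD, n = 3) to 122 ± 32.9 (SD, n = 4) normalized counts (log2 fold change -1.70, DESeq2 adjusted p = 1.33e-06), and Itih3 from 15.2 ± 5.97 to 3.46 ± 2.31 (-2.31, adjusted p = 0.010), the latter on few counts. Prg4, which encodes the joint lubricant lubricin, rose from 148 ± 5.21 (SD, n = 3) to 304 ± 78.2 (SD, n = 4) (log2 fold change 1.03, DESeq2 adjusted p = 0.0011). The calls of Itih5 and Prg4 held when any library was left out. The call of Ptx3 was lost without shControl replicate 1 or 4 or shBrca2 replicate 1, 3 or 4 (DESeq2 adjusted p from 0.11 to 0.17), and that of Itih3 without shControl replicate 1 (0.19). The wider lists, picked with earlier results of these data in view, held 51 genes in all. Of the 41 in the table, 4 were called higher and 7 lower, beside 3.77% and 5.27% over all genes tested. Because of how the lists were picked, these counts do not test hyaluronan genes as a group. The median log2 fold change of the 41 genes was -0.18, beside 0.01 over all genes.

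**Figure D3:**
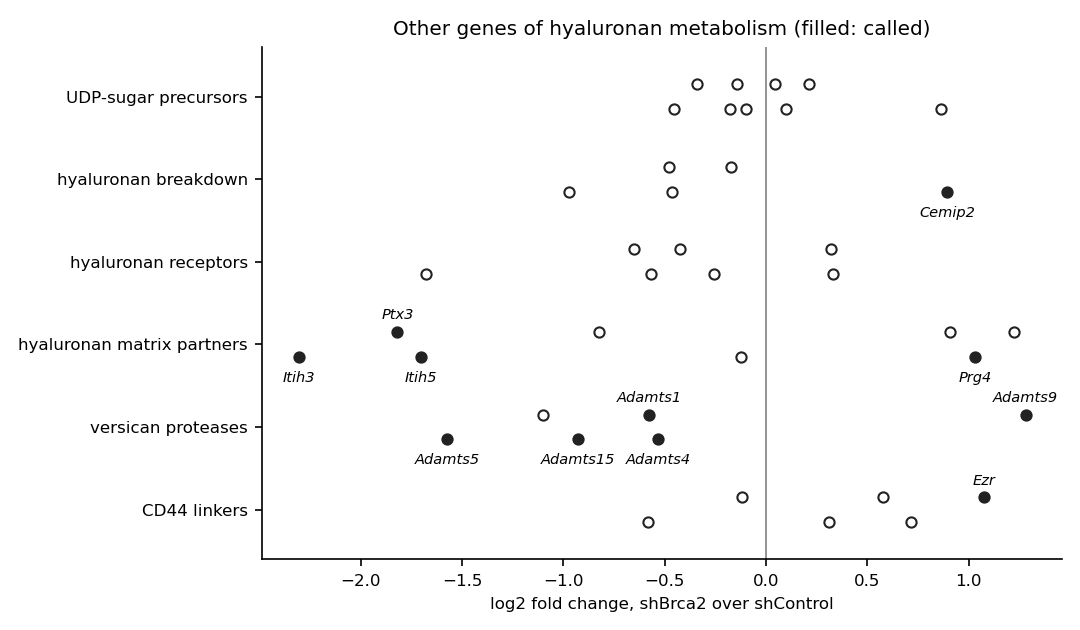
Log2 fold changes of shBrca2 over shControl (horizontal axis) for the 41 measured genes of 6 lists around hyaluronan, 1 point per gene, filled and named where called by DESeq2. 4 of the 6 versican proteases and 3 of the 8 matrix partners are filled left of 0, and no precursor enzyme or receptor is filled.

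Hmmr encodes RHAMM, a hyaluronan receptor that also acts on the mitotic spindle, from a gene on the minus strand at chr11:40701388-40733464. It had normalized counts of 29.9, 73.4 and 27.2 in the shControl libraries (1, 2 and 4 in order) and 68.0, 65.3, 43.2 and 86.4 in the shBrca2 libraries (1 to 4). shControl replicate 2 had the second highest value of the 7 libraries, so the groups overlapped. The mean was 43.5 ± 25.9 (SD, n = 3) against 65.7 ± 17.7 (SD, n = 4), and the log2 fold change was 0.63 (95% interval -0.10 to 1.36, DESeq2 adjusted p = 0.40). Without shControl replicate 2, the log2 fold change was 1.22 with a DESeq2 adjusted p of 0.015, and the gene was called higher. Leaving out any other library gave no call, with log2 fold changes from 0.38 to 0.77 (DESeq2 adjusted p from 0.26 to 0.84). Hmmr varied with the genes of mitosis. The summed normalized count of 20 mitotic genes was 1105, 2763 and 1154 in shControl and 2867, 2643, 1810 and 2815 in shBrca2, and the Pearson r of its log2 value with that of Hmmr was 0.978 over the 7 libraries. Of these 20 genes, 2 (Ccnb1 and Cenpa) were called higher, beside 3.77% over all genes tested. Of the 20, 19 had a positive log2 fold change, and the median was 0.57. The part of dividing cells in the values of Hmmr was not tested.

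**Figure D4:**
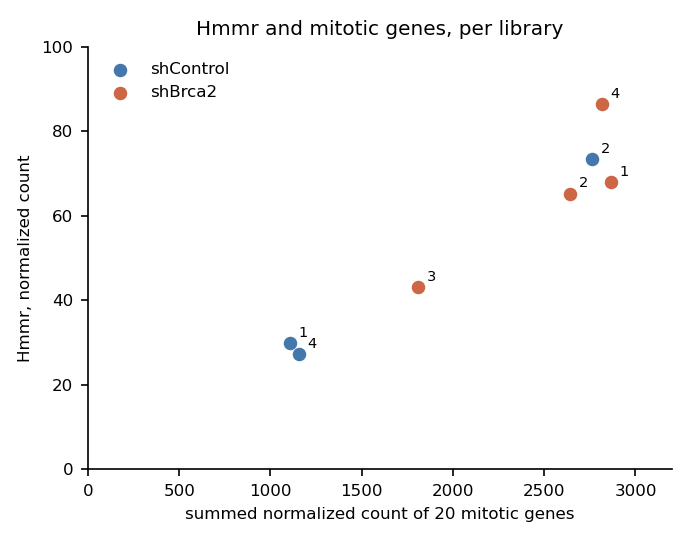
Normalized count of Hmmr (vertical axis) against the summed normalized count of 20 mitotic genes (horizontal axis) in each library, with the replicate number beside each point. shControl replicates 1 and 4 lie at the lower left, and shControl replicate 2 lies among the shBrca2 libraries at the upper right.

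The other 7 hyaluronan receptor genes in the table (of 8), among them Lyve1, Stab1 and Layn, had 0 calls in DESeq2, 1 gene at an unadjusted p under 0.05 (Layn, which edgeR called lower), a median log2 fold change of -0.42 and a range from -1.68 to 0.33.

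Hyal1 and Hyal2 encode the hyaluronidases of somatic tissues, Hyal2 at the cell surface and Hyal1 in the lysosome. They are neighbours on chromosome 9, at chr9:107567873-107572778 (Hyal2) and chr9:107576950-107581699 (Hyal1), with 4171 bases between them. The normalized count of Hyal1 was 87.1, 69.6 and 74.9 in the shControl libraries (1, 2 and 4 in order) and 50.8, 47.2, 62.2 and 44.7 in the shBrca2 libraries (1 to 4). Every shBrca2 value was below every shControl value. The mean was 77.2 ± 9.0 (SD, n = 3) against 51.2 ± 7.71 (SD, n = 4), and the log2 fold change was -0.62 (95% interval -1.10 to -0.14), with a DESeq2 adjusted p of 0.106, just above the threshold. The edgeR quasi-likelihood test gave an adjusted p of 0.081 for the same gene, which passed. Without shBrca2 replicate 3 Hyal1 was also called lower (DESeq2 adjusted p 0.097). Leaving out any other library gave no call (DESeq2 adjusted p from 0.14 to 0.52). The 3′ end of Hyal1 overlaps Naa80 over 1031 bases of span and Hyal3 over 404 bases. Naa80, the acetyltransferase of actin, had a mean of 119 normalized counts and a log2 fold change of 0.01. Reads in the overlap could have been split between these genes or dropped, since how the counting treated them is not given in the sources used here.

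The normalized count of Hyal2 was 201, 191 and 227 in shControl and 132.5, 140.5, 200.3 and 143.3 in shBrca2. shBrca2 replicate 3 lay within the shControl range and the other 3 below it. The mean was 206 ± 18.4 (SD, n = 3) against 154 ± 31.1 (SD, n = 4), and the log2 fold change was -0.44 (95% interval -0.83 to -0.04, DESeq2 adjusted p = 0.21). Without shBrca2 replicate 3, the library of lowest depth, the log2 fold change was -0.57 with a DESeq2 adjusted p of 0.057, and Hyal2 was called lower. Leaving out any other library gave no call, with log2 fold changes from -0.49 to -0.36 (DESeq2 adjusted p from 0.23 to 0.64). Hyal1 and Hyal2 had a Pearson r of 0.88 over the 7 libraries and of 0.69 after the group means were taken off.

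Cemip encodes a protein of skin fibroblasts that binds hyaluronan and is needed for its depolymerization. The gene lies on the minus strand at chr7:83932857-84086693. It had the lowest counts of the set, 14 to 49 per library, which became normalized counts of 19.6, 36.7 and 26.3 in shControl and 18.9, 28.6, 24.2 and 18.3 in shBrca2. The groups overlapped, and the mean of 27.5 ± 8.59 (SD, n = 3) against 22.5 ± 4.83 (SD, n = 4) gave a log2 fold change of -0.26 (95% interval -0.99 to 0.47, DESeq2 adjusted p = 0.81). The interval still holds a fall as large as the log2 rise of Cd44, 0.74.

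Of the other breakdown genes, 5 of 7 were in the table and 1 was called, beside 9.04% over all genes tested. Cemip2, a transmembrane relative of Cemip, had normalized counts of 51.3, 97.4 and 42.8 in shControl and 138, 86.8, 100.2 and 144 in shBrca2. It was called higher (log2 fold change 0.89, SE 0.32, DESeq2 adjusted p = 0.067), although shControl replicate 2 lay above shBrca2 replicate 2. The call was lost without shControl replicate 1 or 4 or shBrca2 replicate 1 or 4 (DESeq2 adjusted p from 0.25 to 0.36). The lysosomal enzyme genes Hexa and Gusb had log2 fold changes of -0.48 and -0.17 and were not called, Hexa with a DESeq2 adjusted p of 0.082 and a fold change under the threshold.

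**Figure D5:**
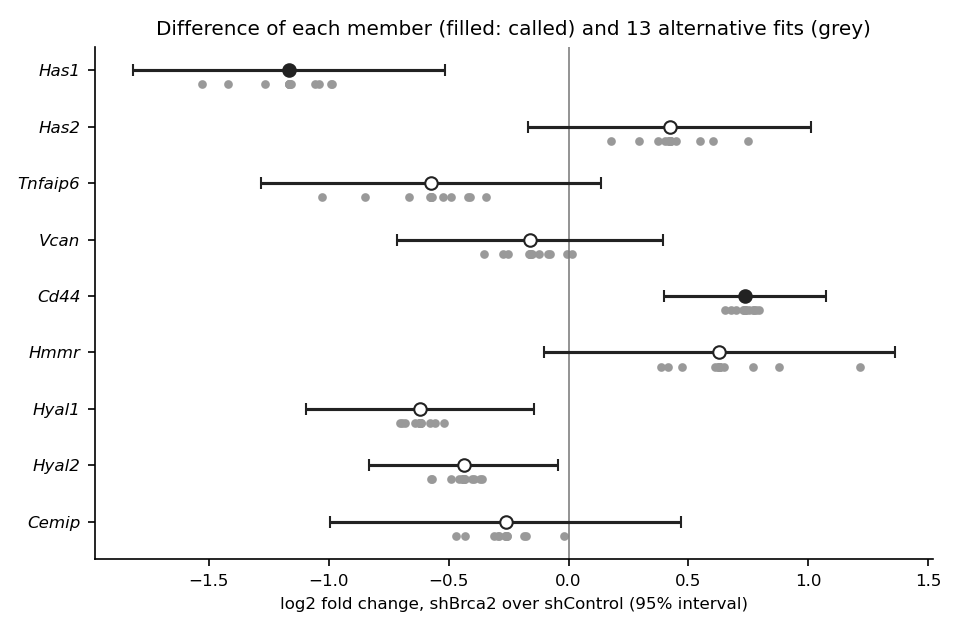
Log2 fold change of shBrca2 over shControl with its 95% interval (horizontal axis) for the 9 measured genes, filled where called, with the values of the 13 alternative fits as grey points below each. The points of Vcan reach 0.015, and those of the other 8 genes stay on 1 side of 0 under the fits shown.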

How the data were processed

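Bulk RNA of 7 CAF libraries was measured, 3 shControl and 4 shBrca2, grouped by the Brca2 status of the KPC cells in the labels. The authors deposited 1 table of raw counts per gene symbol, not normalized. The submitters' processing notes name bcl2fastq, cutadapt, STAR 2.4.2a, HTSeq, DESeq2 and the build mm10. The annotation, strand setting and collapsing of molecular barcodes are not given in the sources used here, so counts may include PCR copies.

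All 12771 genes were fitted with DESeq2 1.42.0 (R 4.3.3, likelihood ratio test, group term only, median-of-ratios size factors), and p-values were adjusted over all genes. 3 genes received no p. Fold changes are shBrca2 over shControl and not shrunken, and intervals are Wald intervals at 95%. Ratios and sums used log2 values with a pseudocount of 1 and a two-sided exact permutation test. Alternatives were edgeR 4.0.16, the Wald test, TMM factors, a filter (count of 10 or more in 3 libraries), no independent filtering, a replicate block and leaving out each library. The code was tested on simulated data. No libraries agreed within sampling noise.

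The 10 genes, the wider lists and the marker lists (proliferation, fibroblast, mesothelial, epithelial, immune, endothelial and pericyte) were chosen with earlier results of these data known. All measured genes of the set are named, genes of the wider and marker lists where called, and for each called gene of the set the 3 genes of highest Pearson r. Other genes named (Layn, Lyve1, Stab1, Nagk, Pgm3, Msn, Rdx, Hexa, Gusb, Spaca6, Has2os, Naa80, Pdpn, Pdgfra, Pecam1, Cd68, Lyz2, Upk3b, Lrrn4 and Ugdh) were picked after their values were seen, and Brca2 was named as the target of the hairpin. Positions and promoters were matched by symbol to RefSeq on GRCm38.p6.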

Additional observations from a re-analysis of the deposited data

Results flagged for a closer look

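1 of 11 sets of values tested held a library far from the others of its group. The Hyal2 normalized count of shBrca2 replicate 3 was 200.3, and the other 3 shBrca2 libraries lay between 132.5 and 143.3. The gap to the nearest library was 0.841 of the group's range, above the 95% critical value of Dixon's test for 4 samples. Chance alone marks about 1 in 20 groups in this way. The same library had the lowest total count of the 7, 1898679.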

How the results depend on the processing

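Cd44 was called higher under all 13 alternatives, and Adamts9, Ezr, Itih5 and Prg4 kept their calls under them as well. The number of hyaluronan genes called higher was 1 and ran from 1 to 2 when single libraries were left out, Hmmr being added without shControl replicate 2. The number called lower was 1. It was 2 with the edgeR quasi-likelihood test, 2 with TMM factors in DESeq2 and 2 with the filter on low counts, Hyal1 being added each time (adjusted p 0.081, 0.099 and 0.093 in these fits), and it ran from 1 to 3 when single libraries were left out. The 2 without shBrca2 replicate 2 were Has1 and Tnfaip6, and the 3 without shBrca2 replicate 3 were Has1, Hyal1 and Hyal2. The log2 fold change of Vcan ran from -0.35 to 0.015 when single libraries were left out and changed sign only without shBrca2 replicate 3 (0.015, adjusted p of 0.98 in DESeq2). The number of other hyaluronan genes called lower, 7, ran from 2 to 10 when single libraries were left out, with 4 without shControl replicate 1 and 2 each without shControl replicate 4, shBrca2 replicate 1 or shBrca2 replicate 4. The number called higher, 4, ran from 3 to 5. The Has1 to Has2 difference ran from -1.99 to -1.18 over its alternatives and the summed synthase difference from -1.40 to -0.93.

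The replicate numbers did not pair the libraries: the same-number pairs deviated with correlations from -0.14 to -0.09, and 0 libraries correlated best with their own number. With the replicate block, the number of hyaluronan genes called lower was 0, since Has1 had a log2 fold change of -1.27 and a DESeq2 adjusted p of 0.50, the number of other hyaluronan genes called lower was 2, and Cd44 kept its call (0.77, adjusted p 0.099). Over all genes, 481 were called higher and 673 lower. These counts became 211 and 280 with the block, 264 and 366 with shControl replicate 1 omitted, and 386 and 418 with shControl replicate 4 omitted. They were 261 and 354 with shBrca2 replicate 1 omitted and 290 and 372 with shBrca2 replicate 4 omitted. The causes of these changes were not tested. Cemip had 14 to 49 counts per library, and its interval is wide at this depth.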

Other observations

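Several genes of the hyaluronan matrix had their extreme value in the same library of a group, a pattern picked after the values were seen and given without a test. shBrca2 replicate 2 had the highest normalized count of the 4 shBrca2 libraries for Has1 (1559), Has2 (126), Tnfaip6 (2742), Ptx3 (1140) and Ugdh (1304). Ugdh encodes the enzyme that makes activated glucuronic acid. Cd44 (360), Vcan (178) and Cemip (28.6) were also highest there, while Hyal1 and Hyal2 were highest in shBrca2 replicate 3 and Hmmr in replicate 4. The share of all genes with their highest value in that library was not counted. In the other 3 shBrca2 libraries Ptx3 lay between 309 and 351 and Ugdh between 570 and 830. shControl replicate 2 had the lowest value of the 3 shControl libraries for Has1 (1304), Tnfaip6 (1319), Ptx3 (1461) and Ugdh (678), and the highest for Hmmr (73.4), while Has2 was lowest in shControl replicate 4 (48.6). The order of the other libraries differed between genes: shBrca2 replicate 3 was the second highest of its group for Has1 (929) and the lowest for Ugdh (570) and Has2 (70.8).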
